A study of Mus musculus with 22 samples.

Results

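Interleukin-2 and the receptors it shares parts with were followed in mouse TH2 cells, the helper T cells that make the type 2 cytokines. The genes were Il2, which encodes the cytokine, Il2ra, Il2rb and Il2rg, which encode the alpha, beta and common gamma chains of its receptor, and Il4ra, Il9r, Il21r and Il15ra, which encode the private chains for interleukins 4, 9, 21 and 15. They were chosen by name, and each name matched a single Ensembl gene, giving 8 genes of the 49671 in the count table. Of the 8, 7 passed the filter on low counts and were tested together with all other such genes, 11905 in total. Il9r did not pass and was tested on its own.

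The study asked which genes calcitriol, the hormone made from vitamin D, changes in these cells. The calcitriol group of 11 libraries came from cells given 100 nM of the hormone over the final 24 hours, and the vehicle group of 11 libraries from cells given 2% ethanol, the solvent. Both groups were harvested at day 5 of polarization and are labelled WT in genotype. The donors in both came from Balb/c mice, male and female, obtained at 6 to 8 weeks of age and bred for 2 generations on feeds of 400, 1000 or 4000 IU vitamin D3 per kg, and the age at which cells were taken is not stated. Which mouse, sex, diet or culture a library came from is not in the labels, and the libraries' differences, on which all p-values rest, may be technical in part.

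Total counts ran from 3618784 to 20258430 in the vehicle and from 3214171 to 12431051 in the calcitriol libraries. Replicates 1 and 2 of both groups stood apart from the rest, and the libraries of each group fell into 6 sets of closely alike libraries, so calls that ended without those 4 libraries or with sets summed are marked. The sets fell at the same replicate numbers in both groups, but these numbers follow deposition order only and were not used to pair libraries. T cell identity was plain: the 8 CD4 T cell markers all passed the filter and summed to 3046 to 3925 CPM (reads per gene on a common scale of library size) in vehicle and 3356 to 3970 CPM in calcitriol libraries. Among them Cd3d, Cd3g, Cd3e and Cd28 were higher with calcitriol, Cd4 and Cd5 were lower, and Trac and Trbc2 were not called. The TH2 list summed to 725 to 1205 CPM and to 1023 to 1441 CPM, with 7 of 8 genes past the filter and Il1rl1 at only 72 and 73 counts. Of its genes Il10 was higher, from 191 ± 51.2 to 521 ± 39.5 CPM (SD, n = 11 each), Il13 was lower, and Gata3, Il4, Il5, Ccr4 and Ccr8 were not called. Markers of CD8 T cells, NK cells, B cells, mast cells, macrophages and dendritic cells each summed to at most 9.53 CPM in any library, over ranges that overlapped between the groups, and Ncr1, C1qa and Clec9a were at 0. Zbtb46, most of the dendritic cell sum, was lower, from 4.68 ± 0.866 to 2.59 ± 0.878 CPM, with 10 of 11 calcitriol libraries below the vehicle range. The regulatory T cell list, which bears on Il2ra because these cells are rich in it, summed to 911 to 1521 CPM in vehicle and 1848 to 2236 CPM in calcitriol libraries. Among its 6 genes Ctla4 was higher, Ikzf2, Nrp1 and Tnfrsf18 were lower, Lrrc32 was not called and the defining gene Foxp3 had 28 and 44 counts in all. The part of these lists in the results that follow was not tested.

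The gamma chain cytokines act through receptors built from a private chain and the common gamma chain. For interleukins 2 and 15 a beta chain is shared as well, while the alpha chain raises affinity or, for interleukin-15, presents the cytokine to neighbouring cells. Jak1 sits on the private or beta chain and Jak3 on the gamma chain, and their main targets are STAT5 for interleukins 2, 9 and 15, STAT6 for interleukin-4 and STAT3 for interleukin-21. In T cells Il2 is switched on through the antigen receptor by NFAT, AP-1 and NF-kB factors. Il2ra is raised by interleukin-2 itself through STAT5, and Il4ra by interleukin-4 through STAT6. The vitamin D receptor is known as a repressor of Il2 in activated T cells.

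The promoters of the called genes Il2, Il2ra, Il2rg and Il21r are shown because these are the genes whose transcripts moved and whose window holds no more than a few annotated exon bases. Each sequence is the 250 bases before the RefSeq start site in build GRCm38.p6, 5′ to 3′ on the gene's strand, and capitals mark matches to the motifs searched. The windows are chr3:37125955-37126204 on the minus strand for Il2, chr2:11642542-11642791 on the plus strand for Il2ra, chrX:101268256-101268505 on the minus strand for Il2rg and chr7:125603179-125603428 on the plus strand for Il21r.
Il2: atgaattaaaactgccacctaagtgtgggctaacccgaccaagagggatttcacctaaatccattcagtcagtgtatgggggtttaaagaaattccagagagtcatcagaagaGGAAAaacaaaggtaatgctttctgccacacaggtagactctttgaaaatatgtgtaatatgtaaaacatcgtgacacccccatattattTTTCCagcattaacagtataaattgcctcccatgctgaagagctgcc
Il2ra: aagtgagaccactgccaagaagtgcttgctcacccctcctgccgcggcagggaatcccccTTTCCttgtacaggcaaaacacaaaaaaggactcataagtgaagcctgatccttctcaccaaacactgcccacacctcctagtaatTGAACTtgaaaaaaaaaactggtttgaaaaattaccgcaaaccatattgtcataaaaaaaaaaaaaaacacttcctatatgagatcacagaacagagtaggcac
Il2rg: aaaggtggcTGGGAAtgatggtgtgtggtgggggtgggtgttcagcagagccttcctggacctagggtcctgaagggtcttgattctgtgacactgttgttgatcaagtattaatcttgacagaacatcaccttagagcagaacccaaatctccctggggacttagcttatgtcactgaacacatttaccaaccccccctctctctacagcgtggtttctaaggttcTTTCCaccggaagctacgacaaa
Il21r: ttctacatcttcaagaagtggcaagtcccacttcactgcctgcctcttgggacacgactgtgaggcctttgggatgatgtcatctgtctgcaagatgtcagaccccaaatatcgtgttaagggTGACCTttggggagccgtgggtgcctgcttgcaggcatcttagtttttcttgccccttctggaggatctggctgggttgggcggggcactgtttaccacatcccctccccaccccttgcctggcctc
The motifs, read on both strands, were the NFAT core GGAAA, the AP-1 site TGANTCA, the STAT site TTCNNNGAA, the Ikaros core TGGGAA, which can overlap GGAAA, and the vitamin D receptor half-sites AGGTCA and AGTTCA. Il2 held GGAAA at -137 to -133 on its own strand and at -47 to -43 on the other strand, counted from the start site, and none of the other motifs. In the Il2ra window, GGAAA lay at -190 and the half-site AGTTCA at -104, both on the other strand. The Il2rg window held TGGGAA at -241 on its own strand and GGAAA at -23 on the other strand. Il21r had the half-site AGGTCA at -127 on the other strand. Among 32851 mouse promoters of the same length, 55.6% held GGAAA, 6.75% TGANTCA, 7.02% TTCNNNGAA, 21.6% TGGGAA, 14% AGGTCA and 11.8% AGTTCA, so the matches are frequent ones and describe only the letters present. A window was found for 7 of the 8 genes, Il2rb being the gene without one.

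Il2, the T cell growth factor, fell to 0.145 of its vehicle level, the largest change among the 8 genes, while 4 receptor chains rose by smaller amounts. Of the 7 genes tested, Il2ra, Il2rg, Il4ra and Il21r were called higher, Il2 was called lower, and Il2rb and Il15ra were not called. That is 71.4% called, against 31.5% of all 11905 genes tested, where 16.1% were higher and 15.5% lower. The median log2 change of the 7 genes was 0.26, against -0.01 over all genes. Il2 had enough counts to pass the filter in the vehicle group alone, so these shares describe the genes and support nothing about them as a set. The groups did not overlap at all for Il2ra, Il2rg and Il4ra, which were higher throughout, as in 2.77% of all genes, and for Il2, which was lower throughout, as in 1.59% of all genes. None of these 7 results crossed the threshold in any of the alternative settings in which the gene was tested. Below, ± after a level in CPM is the SD over 11 libraries, and ± after a log2 change is its SE.

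**Figure D1:**
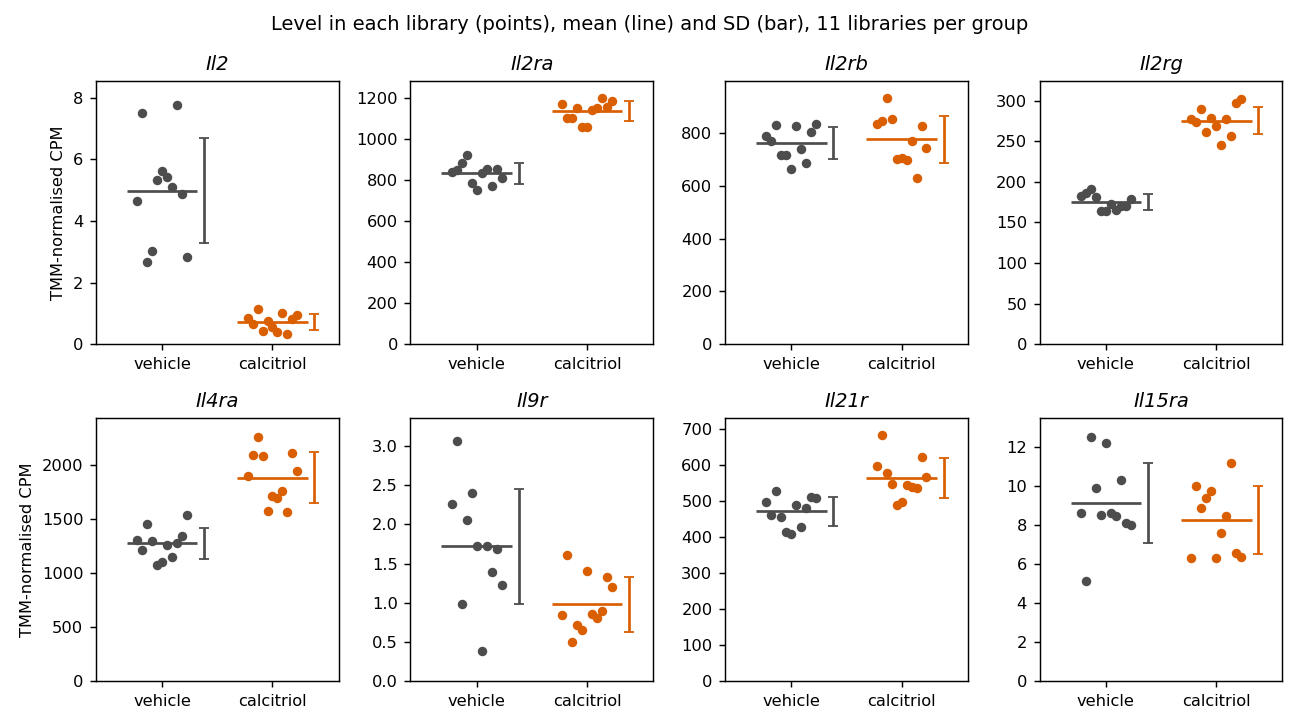
Level of each gene in every library as TMM-normalised CPM (vertical axes, starting at 0), vehicle in grey and calcitriol in orange; points are libraries, lines the mean of 11 and bars the SD. Il2 separates downwards, from 4.98 to 0.718 CPM on average, and Il2ra, Il2rg and Il4ra separate upwards, while Il2rb and Il15ra overlap.

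Il2 (ENSMUSG00000027720) lies on the minus strand of chromosome 3 from 37120523 to 37125959 (GRCm38). Its level in the vehicle libraries was lowest at 2.67, had a median of 5.11 and was highest at 7.76 TMM-normalised CPM. With calcitriol the lowest level was 0.325, the median 0.766 and the highest 1.15 CPM. The highest calcitriol library was thus lower than the lowest vehicle library, and the vehicle median was 6.67 times the calcitriol median. Mean levels were 4.98 ± 1.70 and 0.718 ± 0.272 CPM (SD, n = 11 each). The log2 change was -2.78 ± 0.23 (SE), with a 95% interval of -3.26 to -2.30 (edgeR quasi-likelihood test, adjusted p = 3.02e-10). Counts were small, at 469 over the vehicle and 65 over the calcitriol libraries, or 19 to 101 and 2 to 10 per library. Fewer cells making Il2 and less Il2 RNA in each cell cannot be told apart in bulk RNA. Of 33 alternatives, summing libraries into sets gave the highest adjusted p, 2.89e-06, at -2.88 on the log2 scale (edgeR).

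The shared gamma chain gene Il2rg (ENSMUSG00000031304), on the minus strand of the X chromosome from 101264378 to 101268255, rose the most of the receptor chains. Vehicle libraries held 164 at the lowest, 173 at the median and 191 CPM at the highest, and calcitriol libraries 246, 277 and 302 CPM. The groups were set apart by a gap wider than the range within the vehicle group. Means were 175 ± 9.24 and 276 ± 17.0 CPM (SD, n = 11 each), a log2 change of 0.65 ± 0.04 (SE, 95% interval 0.57 to 0.74; edgeR, adjusted p = 1.96e-12). Over the alternatives it stayed between 0.58 and 0.67. Because the gene is X-linked, the sex-linked transcripts were read as well: the X-inactivation RNA Xist ran from 209 to 302 CPM in vehicle and from 225 to 322 CPM in calcitriol libraries, and the Y-linked Ddx3y had 1 count in the first group and 0 in the second. Every library thus had the female-typical transcript and almost none the male one. The labels mention mice of both sexes and give no sex per library.

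Il2ra (ENSMUSG00000026770), the alpha chain also known as CD25, lies on chromosome 2 from 11642807 to 11693193 on the plus strand. It was already abundant under vehicle, at 749, 839 and 919 CPM (lowest, median, highest), and stood at 1055, 1150 and 1197 CPM with calcitriol. No calcitriol library came down to the vehicle range. Means were 831 ± 49.9 and 1132 ± 48.5 CPM (SD, n = 11 each), and Il2ra rose by 0.45 ± 0.04 on the log2 scale (SE; 95% interval 0.37 to 0.53; edgeR, adjusted p = 5.28e-10). The SD was 6% of the mean under vehicle and 4.29% with calcitriol, among the smallest spreads of these genes. Gm37881, a short gene model annotated on the same strand inside Il2ra, held 5429 counts beside the 186034 of Il2ra and was itself higher by 0.34 ± 0.09 (SE; edgeR, adjusted p = 0.00477), and how reads of the pair were shared out is not known.

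The beta chain gene Il2rb (ENSMUSG00000068227, chromosome 15, 78479256 to 78495271, minus strand) was not called. Vehicle levels were 665, 770 and 834 CPM and calcitriol levels 629, 770 and 935 CPM at the lowest, median and highest library. The medians were the same to 3 digits and the calcitriol range enclosed the vehicle range, with 4 calcitriol libraries above it and 1 below. Means of 762 ± 60.2 and 777 ± 89.9 CPM (SD, n = 11 each) gave a log2 change of 0.03 ± 0.06 (SE), with a 95% interval of -0.09 to 0.15 (edgeR, adjusted p = 0.762). The interval lies below the changes of Il2ra and Il2rg. Its sign depended on the setting, from -0.04 with scaling by the total count to 0.06 in leave-one-out fits, and it was called in none of them.

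Il4ra (ENSMUSG00000030748), the chain that binds interleukin-4 and also serves the interleukin-13 receptor, is on the plus strand of chromosome 7 from 125552120 to 125579474. Its libraries held 1076, 1277 and 1536 CPM under vehicle and 1570, 1899 and 2266 CPM with calcitriol. The lowest calcitriol library lay just above the highest vehicle library. With means of 1276 ± 140 and 1884 ± 237 CPM (SD, n = 11 each), Il4ra rose by 0.56 ± 0.07 on the log2 scale (SE; 95% interval 0.42 to 0.70; edgeR, adjusted p = 2.02e-07). Il21r (ENSMUSG00000030745), the interleukin-21 receptor, starts 24 kb further along the same strand and spans 125603429 to 125633570. Its vehicle libraries held 409, 480 and 530 CPM and its calcitriol libraries 491, 549 and 684 CPM, so that 9 of 11 calcitriol libraries exceeded all vehicle libraries and 2 did not. Il21r rose by 0.26 ± 0.06 (SE), from 472 ± 41.1 to 565 ± 55.4 CPM (SD, n = 11 each; 95% interval 0.14 to 0.37; edgeR, adjusted p = 0.000683), the smallest of the 4 increases. Calcitriol replicate 2, one of the libraries that stood apart, was its highest at 684 CPM, and without replicates 1 and 2 of both groups the change was 0.22 (edgeR, adjusted p = 0.00503).

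The other private chains were scarce. Il15ra (ENSMUSG00000023206, chromosome 2, 11705290 to 11734317, plus strand) begins 12.1 kb beyond the end of Il2ra, and was not called. Its libraries held 5.12, 8.61 and 12.5 CPM under vehicle and 6.30, 8.45 and 11.2 CPM with calcitriol, with wide overlap. Means of 9.13 ± 2.06 and 8.26 ± 1.74 CPM (SD, n = 11 each) gave a difference of -0.15 ± 0.13 on the log2 scale (SE; 95% interval -0.42 to 0.12; edgeR, adjusted p = 0.431). Its interval and that of its neighbour Il2ra do not meet.

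Il9r (ENSMUSG00000020279, chromosome 11, 32187541 to 32200279, minus strand), the interleukin-9 receptor, had 158 counts over the vehicle and 89 over the calcitriol libraries, 3 to 35 and 3 to 16 per library. Levels were 0.386, 1.72 and 3.07 CPM under vehicle and 0.494, 0.856 and 1.61 CPM with calcitriol. The lowest library of all was a vehicle library, yet 7 of 11 vehicle libraries lay above every calcitriol library. Means of 1.72 ± 0.732 and 0.982 ± 0.351 CPM (SD, n = 11 each) gave a log2 ratio of -0.81. The difference in mean CPM was tested by a two-sided permutation test over libraries with 100000 resamples (p = 0.00666, not adjusted). Alternatives that kept the gene in the fit over all genes numbered 16, and 15 of them called it lower. The exception left out replicates 1 and 2 of both groups, which put the difference at -0.65 on the log2 scale (edgeR, adjusted p = 0.0631), and vehicle replicate 2 alone held the highest level, 3.07 CPM.

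Set against transcript length, the 8 genes fell into an abundant tier of 5 receptor chains and a scarce tier of Il2, Il15ra and Il9r. Under vehicle, Il4ra held 213 ± 23.3, Il2rb 178 ± 14.0, Il2ra 146 ± 8.73, Il21r 142 ± 12.4 and Il2rg 73.5 ± 3.87 CPM per kb of merged exon (SD, n = 11). Far below came Il2 with 4.35 ± 1.49, Il15ra with 2.05 ± 0.463 and Il9r with 0.348 ± 0.148 CPM per kb. Ranges of neighbours in this order overlapped from Il4ra to Il2rb, from Il2rb to Il2ra and from Il2ra to Il21r, and again from Il2 to Il15ra. Il2ra exceeded Il21r in only 5 of 11 vehicle libraries, so that pair has no order, whereas Il4ra exceeded Il2rb in each of the 11. With the longest transcript as length Il2ra and Il21r, at 188 and 189, came above Il2rb at 182 CPM per kb. As counted, Il2rg, the chain these receptors share, was thus the least abundant of the 5 abundant chains in each group. Another gene model, Gm20489, is annotated across Il2rg on the same strand and had 0 counts. How reads of the pair were shared out is not known, so the level of Il2rg may be understated and the ratios to it overstated.

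With calcitriol the order changed in 2 places. Il4ra stood at 314 ± 39.5, Il2ra at 198 ± 8.50, Il2rb at 181 ± 21, Il21r at 170 ± 16.7 and Il2rg at 115 ± 7.11 CPM per kb (SD, n = 11). Il2ra passed Il2rb in mean and exceeded it in 9 of 11 libraries, though the ranges overlapped. At the lower end Il15ra, at 1.86 ± 0.391 CPM per kb, took the place of Il2, at 0.627 ± 0.238, with no overlap between the pair. Il9r remained last at 0.198 ± 0.071 CPM per kb.

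**Figure D2:**
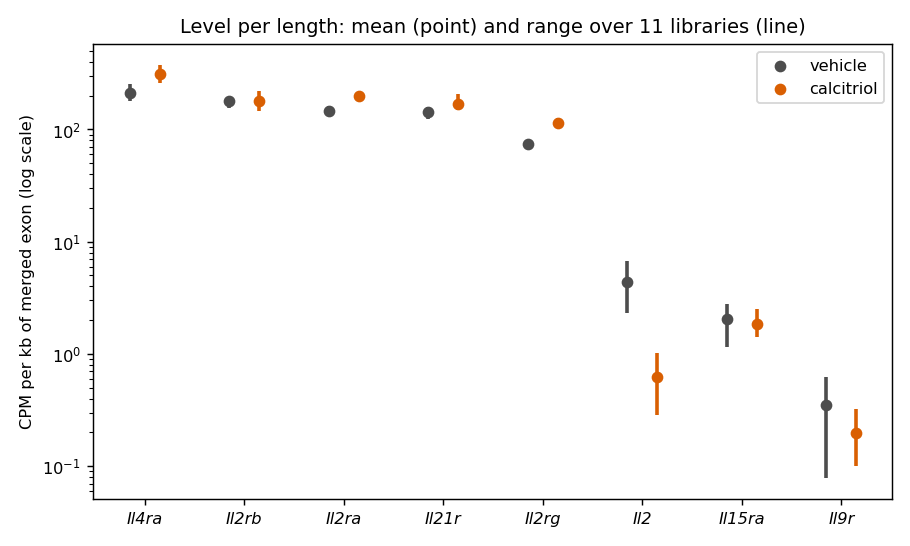
Level per length of each gene in CPM per kb of merged exon on a log axis, vehicle in grey and calcitriol in orange; points are means over 11 libraries and lines the lowest to highest library. The 5 abundant receptor chains lie between 73.5 and 314 CPM per kb on average, and Il2, Il15ra and Il9r at or under 4.35.

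Ratios between the chains within a library, per kb, describe the same shifts without a scaling factor. The Il2rb to Il2rg ratio was below the vehicle range in every calcitriol library, from 2.42 ± 0.16 (2.20 to 2.66) to 1.57 ± 0.164 (1.36 to 1.82; SD, n = 11 each). The Il2ra to Il2rb ratio moved the other way, from 0.822 ± 0.0612 to 1.11 ± 0.144, with 10 of 11 calcitriol libraries above the vehicle range. Where this ratio stands relative to 1 depends on the length used, since with the longest transcript Il2ra was already at 188 and Il2rb at 182 CPM per kb under vehicle, whereas the shift between the groups does not. Il21r to Il2rg went from 1.93 ± 0.129 to 1.47 ± 0.145, and Il2ra to Il2rg from 1.98 ± 0.098 to 1.72 ± 0.134. The Il4ra to Il2rg ratio differed least, at 2.89 ± 0.248 and 2.72 ± 0.297, with overlapping ranges, and the Il4ra to Il21r ratio went from 1.5 ± 0.0719 to 1.85 ± 0.168.

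**Figure D3:**
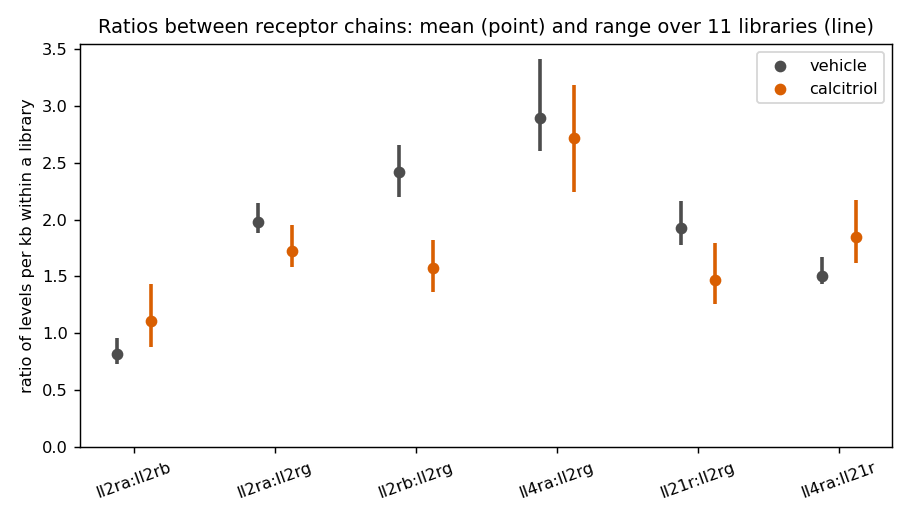
Ratio of the levels per kb of pairs of receptor chains within a library (vertical axis, starting at 0), vehicle in grey and calcitriol in orange; points are means over 11 libraries and lines the lowest to highest library. The Il2rb to Il2rg ratio, 2.42 against 1.57, is the pair whose ranges do not touch.

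Library by library, within each group, Il4ra moved with Il2rb and Il21r. Taken as deviations of log2 CPM from the group mean over 22 libraries, Pearson's r was 0.85 (rho 0.83) for Il2rb and Il4ra, 0.80 (rho 0.84) for Il4ra and Il21r and 0.68 (rho 0.72) for Il2rb and Il21r. These points share libraries, depth and the sets of partner libraries, so the values are descriptive. Il2 and Il2rg had r of -0.45 within vehicle and 0.87 within calcitriol libraries, the latter on 2 to 10 Il2 counts per library.

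The genes most like each chain in this measure were picked as the highest of 11284 genes whose mean reached 2 CPM. For Il2rb they were the glycolytic enzymes Pfkm (r 0.94, rho 0.93) and Aldoa (r 0.93, rho 0.92), for Il4ra the endosomal sorting gene Chmp1a (r 0.94, rho 0.94) and the progestin receptor Paqr7 (r 0.93, rho 0.95), and for Il21r Fam214b (r 0.84, rho 0.80) and the drug transporter Abcc1 (r 0.82, rho 0.79). Il2ra was closest to the mitochondrial mt-Nd4 (r 0.84, rho 0.85) and Zfp429 (r 0.82, rho 0.70), and Il2rg to Gnas (r 0.80, rho 0.81) and the decapping gene Dcp1b (r 0.79, rho 0.82). Il15ra was closest to the repair gene Ercc6 (r 0.79, rho 0.71) and Tnf (r 0.69, rho 0.61). For Il2 they were Zfp865 (r 0.74, rho 0.73), Cnnm3 (r 0.72, rho 0.67), Clec16a (r 0.66, rho 0.70), Vmac (r 0.66, rho 0.67) and Ptk7 (r 0.65, rho 0.53). Of these 17 genes Ercc6 was called higher and Tnf, Ptk7 and Paqr7 lower. Their log2 changes were 0.78 ± 0.06, -1.31 ± 0.13, -0.26 ± 0.08 and -0.21 ± 0.07 (SE; edgeR, adjusted p = 6.29e-11, 8.72e-09, 0.0166 and 0.0257). The calls of Ptk7 and Paqr7 were lost with library sets summed (edgeR, adjusted p = 0.0622 and 0.102).

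Among the other cytokines and partner chains of the family, the cytokine Il9 fell and the receptor chain Crlf2 rose. Of 10 genes listed 7 were tested, 2 were higher, 2 lower and 3 not called, 57.1% against 31.5% of all genes, with a median log2 change of 0.15. This list and those below were chosen with earlier results of these data known, so their shares are descriptive only. Il9, whose receptor gene is Il9r, was lower, at -1.89 ± 0.23 on the log2 scale, from 28.4 ± 6.42 to 8.10 ± 4.35 CPM (SD, n = 11 each; edgeR, adjusted p = 7.18e-07). Il13, which signals through Il4ra but not through the gamma chain, went from 333 ± 104 to 203 ± 106 CPM, a log2 change of -0.72 ± 0.23 (SE; edgeR, adjusted p = 0.0204) that was lost with sets summed (edgeR, adjusted p = 0.0926). Crlf2, the receptor chain for thymic stromal lymphopoietin, was higher by 0.57 ± 0.09, from 39.6 ± 4.98 to 58.9 ± 9.27 CPM (edgeR, adjusted p = 7.97e-06). Its partner Il7r, also the private chain for interleukin-7, went from 84.8 ± 18.5 to 103 ± 13.3 CPM, a log2 change of 0.28 ± 0.10 (SE; edgeR, adjusted p = 0.037). The Il7r call was lost in 12 alternatives, sets summed among them, at an adjusted p of up to 0.148 (edgeR).

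Il4 and Il21, the ligands of Il4ra and Il21r, were not called. Il4 was at 86.8 ± 8.00 and 96.7 ± 17.8 CPM (log2 change 0.15 ± 0.08, SE; edgeR, adjusted p = 0.166), and Il21 at 761 ± 103 and 714 ± 90.3 CPM (-0.09 ± 0.07, SE; edgeR, adjusted p = 0.389), both n = 11 with SD. Il21 is the nearest tested gene on one side of Il2, 96.8 kb away. Il7, Il15 and Tslp stayed below the filter, with 0 and 3, 13 and 7, and 17 and 0 counts in the vehicle and calcitriol libraries.

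Among the kinases and adaptors below these receptors, Jak1 rose slightly and Pik3r1 and Gab2 fell. Of 20 genes listed 19 were tested, 3 were higher, 3 lower and 13 not called, 31.6% against 31.5% of all genes, with a median log2 change of 0.01. Jak1, the kinase of the private and beta chains, was higher by 0.18 ± 0.05 (SE), from 330 ± 15 to 374 ± 33.5 CPM (edgeR, adjusted p = 0.00413), and Jak3, the kinase of the gamma chain, was not called at 0.10 ± 0.09 (edgeR, adjusted p = 0.457). Log2 differences were -0.06 ± 0.05 for Stat5a, -0.12 ± 0.06 for Stat5b and -0.12 ± 0.05 for Stat6, and none was called (SE; edgeR, adjusted p = 0.333, 0.138 and 0.0864). The regulatory subunit of PI3 kinase Pik3r1 was lower at -0.35 ± 0.06 and the adaptor Gab2 lower at -0.63 ± 0.19 (SE; edgeR, adjusted p = 6.38e-05 and 0.0127). With sets summed 0 genes of this list were higher and 1 lower, and the calls of Jak1 and Gab2 were among those lost (edgeR, adjusted p = 0.0519 and 0.087). With scaling by the total count 1 was higher and 8 lower.

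Genes linked to STAT5 after interleukin-2 were called in both directions. All 20 were tested, 7 were higher, 7 lower and 6 not called, 70% against 31.5% of all genes, with a median log2 change of -0.09. The list was chosen with earlier results known, and its counts of higher and lower are not a reading of STAT5 activity. Lower were the cyclins Ccnd2 (-0.48 ± 0.05, from 706 ± 72.3 to 506 ± 22.8 CPM) and Ccnd3 (-0.49 ± 0.05), the survival gene Bcl2l1 (-0.68 ± 0.09) and the cytokine Lta (-2.13 ± 0.27), each in 11 of 11 calcitriol libraries below the vehicle range. Higher were the transcriptional repressor Prdm1 (1.61 ± 0.14, from 10.1 ± 2.45 to 30.9 ± 6.80 CPM) and the granule protease Gzmb (1.70 ± 0.21). Bcl6 was also among the higher, at 0.83 ± 0.26 (SE; edgeR, adjusted p = 0.016). Its levels were low, at 2.57 ± 0.622 and 4.24 ± 2.37 CPM, with 7 calcitriol libraries above the vehicle range and 3 below it. The feedback inhibitor Cish, a classic STAT5 target, was at 253 ± 23.1 and 252 ± 24.6 CPM (log2 change -0.01 ± 0.06, SE; edgeR, adjusted p = 0.939). Of the Socs and Pim genes listed, Socs2 (-0.47 ± 0.09) and Pim2 (-0.56 ± 0.15) were called lower. Socs3 (0.54 ± 0.10) and Pim1 (0.26 ± 0.07) were called higher, and Socs1 was not called. Cish, Gzmb, Lta, Bcl6 and the Socs and Pim genes lie outside the naming rule and were picked after their values were seen. Among those under the rule, Prdm1, Ccnd2, Ccnd3 and Bcl2l1 had edgeR adjusted p-values of 2.07e-09, 1.51e-08, 2.5e-08 and 9.06e-07. With sets summed 4 rather than 7 genes were called higher.

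The STAT6 list of interleukin-4 targets had 9 of 10 genes tested, of which 4 were higher, 1 lower and 4 not called, 55.6% against 31.5% of all genes, at a median log2 change of 0.17. Maf, a TH2 transcription factor, was higher by 0.88 ± 0.07 (SE), from 101 ± 11.8 to 185 ± 22.4 CPM, and Xbp1 and Nfil3 by 0.29 ± 0.06 and 0.45 ± 0.09 (edgeR, adjusted p = 8.1e-11, 0.000363 and 0.000663). Gfi1, a repressor that supports growth of TH2 cells, was lower at -0.37 ± 0.07 (SE; edgeR, adjusted p = 0.000173). The master regulator Gata3, picked after its value was seen, was not called at 0.17 ± 0.08 (edgeR, adjusted p = 0.0967).

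Factors that switch Il2 on went in both directions while Il2 fell. Of 21 genes 20 were tested, 8 were higher, 5 lower and 7 not called, 65% against 31.5% of all genes, with a median log2 change of 0.01. The NF-kB subunit Rel, which Il2 needs in T cells, was below the vehicle range in 11 of 11 calcitriol libraries, from 18.9 ± 4.41 to 9.56 ± 1.28 CPM (log2 change -0.98 ± 0.11, SE; edgeR, adjusted p = 1.26e-07), and the calcineurin subunit Ppp3ca was lower at -0.50 ± 0.09 (edgeR, adjusted p = 9.58e-05). The AP-1 member Fosl2 was higher at 0.75 ± 0.07, from 159 ± 20.9 to 267 ± 32.8 CPM, and the kinase Prkcq, 342 kb from Il2ra on chromosome 2, was higher at 0.45 ± 0.08 (edgeR, adjusted p = 4.14e-09 and 5.87e-05). Without replicates 1 and 2 of both groups 3 rather than 5 of these genes were called lower. With scaling by the total count 8 were.

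**Figure D4:**
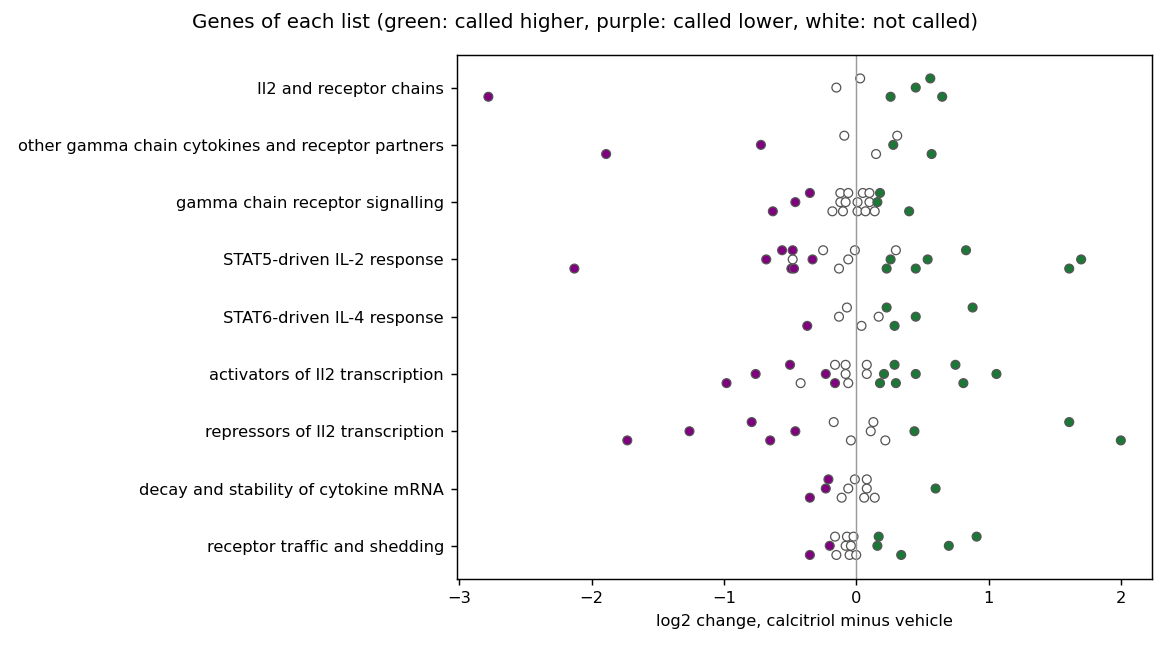
Log2 change, calcitriol minus vehicle, of each tested gene (points) in the top row for Il2 and the receptor chains and in 8 lists of related genes; green points were called higher, purple lower and white not called by edgeR. The receptor signalling list clusters near 0 with 6 of 19 genes called, and the lists of Il2 regulators spread to both sides.

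Repressors of Il2 also went both ways. Of 14 genes 13 were tested, 3 were higher, 5 lower and 5 not called, 61.5% against 31.5% of all genes, with a median log2 change of -0.04. The Ikaros family members Ikzf3 and Ikzf1 were higher by 2.00 ± 0.21, from 61.4 ± 20.7 to 244 ± 69.1 CPM, and by 0.44 ± 0.04, from 244 ± 14.9 to 331 ± 18.5 CPM (edgeR, adjusted p = 1.42e-07 and 3.21e-09). Prdm1, which is also a repressor of Il2, is given with the STAT5 genes. Tbx21, the TH1 factor, was lower, at -1.26 ± 0.11, from 8.12 ± 1.27 to 3.39 ± 0.522 CPM (edgeR, adjusted p = 1.29e-09). Vdr, the calcitriol receptor, was itself lower, from 16.1 ± 5.70 to 5.40 ± 4.50 CPM (log2 change -1.73 ± 0.31, SE; edgeR, adjusted p = 0.000122), with 9 of 11 calcitriol libraries under the vehicle range.

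Among regulators of cytokine mRNA decay, Zfp36 rose and Ybx1, Ilf2 and Zc3h12a fell. All 11 were tested, 1 was higher, 3 lower and 7 not called, 36.4% against 31.5% of all genes, with a median log2 change of -0.01. Zfp36, which binds AU-rich elements and hastens decay of cytokine mRNA, was higher by 0.60 ± 0.08, from 33.5 ± 2.77 to 50.9 ± 9.02 CPM (edgeR, adjusted p = 2.16e-06). The stabilising factors Ybx1 and Ilf2 were lower at -0.23 ± 0.04 and -0.21 ± 0.05, and the RNase Zc3h12a lower at -0.35 ± 0.10 (edgeR, adjusted p = 9.55e-05, 0.000868 and 0.0105).

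Genes for receptor traffic and shedding gave 5 higher, 2 lower and 8 not called of 15 tested, 46.7% against 31.5% of all genes, with a median log2 change of -0.04. Ecm1, a secreted protein known to bind the interleukin-2 receptor on TH2 cells, was higher by 0.91 ± 0.14, from 168 ± 45 to 317 ± 68.4 CPM, and the ubiquitin ligases Rnf128 and Cblb by 0.70 ± 0.18 and 0.34 ± 0.10 (edgeR, adjusted p = 2.6e-05, 0.00406 and 0.00876). Hgs, of the endosomal sorting machinery, was lower at -0.35 ± 0.10 (edgeR, adjusted p = 0.008). With sets summed 3 genes of this list were higher and 1 lower, and with scaling by the total count 3 were higher and 5 lower.

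Around the genes themselves, the surroundings of Il2rg stood at one end. All 6 of its nearest tested neighbours were higher, 3 on each side, on a chromosome where 16.4% of 379 tested genes were higher and the median log2 change was 0.01. Foxo4, a forkhead factor 3.50 kb away, was higher by 2.08 ± 0.06, from 31.6 ± 3.78 to 134 ± 8.91 CPM, more than Il2rg itself (edgeR, adjusted p = 5.48e-20). On the other side the Mediator subunit Med12, 5.78 kb away, was higher by 0.85 ± 0.06, and Zmym3 and Nono, 136 and 161 kb away, by 1.20 ± 0.05 and 0.54 ± 0.04 (edgeR, adjusted p = 4.61e-12, 1.47e-16 and 1.11e-11). Snx12 at 41.8 kb was higher by 0.45 ± 0.05, and Gm614, only 0.386 kb from Il2rg, by 0.63 ± 0.19 at 1.64 ± 0.611 and 2.62 ± 0.659 CPM (edgeR, adjusted p = 2.94e-08 and 0.0111). Reads of genes this close may be shared. Gm20489, annotated across Il2rg on the same strand, had 0 counts, and how reads of that pair were shared out is not known.

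The other surroundings were mixed. Over the 31 neighbours of the remaining genes, none of them among the 8, 11 were higher, 4 lower and 16 not called, 48.4% against 31.5% of all genes. With the neighbours of Il2rg the counts were 17, 4 and 16 of 37. Next to Il2, 4932438A13Rik at 67.5 kb, Gm12534 at 105 kb and Gm43822 at 107 kb were higher by 0.70 ± 0.06, 0.78 ± 0.08 and 0.68 ± 0.16, opposite to Il2 (edgeR, adjusted p = 7.69e-10, 9.52e-09 and 0.00201), and Bbs7 and Ccna2 were not called. Gm12534 is annotated as antisense inside Il21 and Gm43822 begins just past the end of Il21. How reads of these genes and Il21 were shared out is not known. Near Il2ra the glycolysis regulator Pfkfb3, at 88.7 kb, was higher by 0.66 ± 0.09 (edgeR, adjusted p = 3.92e-06) and Ankrd16 by 0.18 ± 0.05 (edgeR, adjusted p = 0.0139), while Rbm17 and Fbh1 were not called. The Ankrd16 call was lost in 3 alternatives, at an adjusted p of 0.0584 without replicates 1 and 2 of both groups, 0.0795 with sets summed and 0.144 with scaling by the total count (edgeR).

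Around Il2rb, Cyth4 was lower, at -0.45 ± 0.05 and the GTPase Rac2 higher by 0.22 ± 0.05 (edgeR, adjusted p = 2.37e-08 and 0.000456). Kctd17 and Ncf4 were lower, at -0.32 ± 0.11 and -0.25 ± 0.08, calls that ended with sets summed (edgeR, adjusted p = 0.0671 and 0.141) and without replicates 1 and 2 of both groups (edgeR, adjusted p = 0.0606 and 0.101), and Mpst and Mfng were not called. Kctd17 lost its call in 10 of 34 alternatives in all. Near Il4ra and Il21r, which rose side by side, Nsmce1, Kdm8, Lcmt1, Gtf3c1 and D430042O09Rik were not called, with log2 changes of -0.02 to 0.10, and Xpo6 at 0.21 ± 0.08 lost its call in 15 alternatives, sets summed among them (edgeR, adjusted p = 0.156). Around Il9r, Nsg2 was higher by 1.21 ± 0.28, Nprl3 higher by 0.36 ± 0.08 and Rhbdf1 lower, at -0.62 ± 0.15 (edgeR, adjusted p = 0.00117, 0.00117 and 0.00159), and Cpeb4, Bod1 and Snrnp25 were not called. Mindy3, beyond Il15ra, was not called.

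**Figure D5:**
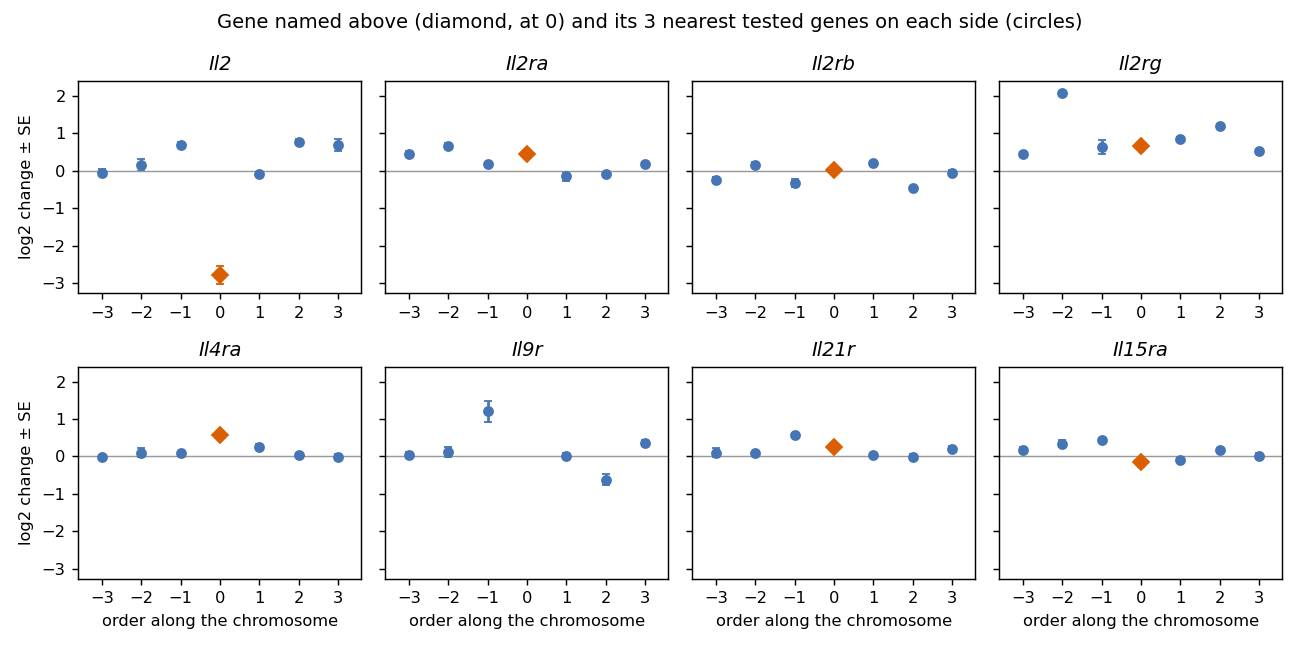
Log2 change ± SE, calcitriol minus vehicle, of each gene (diamond at 0) and its 3 nearest tested genes on each side (circles), in order along the chromosome; Il9r was not tested and has no diamond, and Il4ra with Il21r and Il2ra with Il15ra appear in each other's panels. All 6 neighbours of Il2rg lie above 0, at 0.45 to 2.08, while the neighbours of Il2 lie between -0.09 and 0.78 around its -2.78.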

How the data were processed

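The authors deposited raw read counts per Ensembl gene for 22 libraries, 11 per group. The kit was a stranded one for total RNA with globin depletion, per the labels' protocols. STAR 2.7.10a, HTSeq 0.13.5 and GRCm38 are named in the submitters' processing notes. For strand setting and annotation, what was used is not given in the sources used here, so overlapping genes may share reads. Symbols, positions and exon lengths came from GENCODE M21 (GRCm38), where 345 identifiers had no symbol, and promoters from RefSeq (GRCm38.p6). Of 49671 genes, 22370 had no count. The median total count was 7504710.

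Genes were kept with filterByExpr, scaled with TMM and tested with edgeR 4.0.16 (R 4.3.3): quasi-likelihood F test, robust, no covariate, two-sided, Benjamini-Hochberg over 11905 genes, threshold 0.05. SE is the log2 change divided by the root of F. The test was tried on simulated data first.

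The 8 genes, the lists and the tests were chosen with earlier results of these data known. In each list up to 4 called genes with the smallest p were named, plus Il4, Il7r, Jak1, Jak3, Stat5a, Stat5b, Stat6, Vdr, the 3 nearest tested genes on each side and the most alike genes. Of the genes this rule names, 1 is not reported here. Lists hold genes by their known role. Alternatives were DESeq2 1.42.0, limma-voom with and without quality weights (limma 3.58.1), other scaling and filters, non-robust dispersion, 5 surrogate variables (sva 3.50.0) and leaving out each library. Leaving out replicates 1 and 2 of both groups, and summing best correlated partner libraries into 6 sets per group, were added after the data had been seen. A search of protein sequences was not run.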

Additional observations from a re-analysis of the deposited data

How the results depend on the processing

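No call among the 7 tested genes of the family changed under 34 alternatives (33 for Il2, which a filter of 5 CPM in 11 libraries removes). Their log2 changes ran from -2.88 to -2.61 for Il2, 0.38 to 0.46 for Il2ra, 0.58 to 0.67 for Il2rg, 0.49 to 0.59 for Il4ra, 0.19 to 0.28 for Il21r, -0.04 to 0.06 for Il2rb and -0.21 to -0.09 for Il15ra. The highest adjusted p was 0.0185 for Il21r, with sets summed (edgeR). Il9r kept its direction in leave-one-out permutation tests of mean CPM (p from 0.00058 to 0.0129). It also did so without replicates 1 and 2 of both groups (log2 ratio of means -0.70, permutation test of mean CPM, p = 0.0202).

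The number of the 8 genes called lower was 2 with DESeq2, with no filter and with sets summed, since Il9r was then tested, and 0 with the 5 CPM filter, since Il2 was not. Leaving out 1 library gave 1 to 2. Over all genes, sets summed gave 2357 calls, 1242 higher and 1115 lower, against 3755, 1911 and 1844. Lower calls numbered 2878 with scaling by the total count and 2893 with surrogate variables. Scaling by the total count moved the median of all genes to -0.08 and the share of calls that were higher from 50.9% to 31.4%. With the longest transcript as length, vehicle levels were 188 for Il2ra, 105 for Il2rg, 243 for Il4ra, 189 for Il21r and 3.94 CPM per kb for Il15ra, so that Il2ra and Il21r came above Il2rb.

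Among 90 other named genes no change reversed sign past the threshold, 53 single calls were lost and 25 gained over all alternatives. Low counts limit Il2 and Il9r most. No paired analysis was made. The labels carry no replicate numbers, and nothing in them ties a library or set of one group to one of the other. Any link between sets at the same replicate numbers was thus left out of the fits.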
